A study of Mus musculus with 8 samples.

Results

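The 34 genes described here encode the Wnt ligands (19 genes, Wnt1 to Wnt16) and their cell surface receptors (10 Frizzled genes, the kinase-like receptors Ror1, Ror2 and Ryk, and the co-receptors Lrp5 and Lrp6). They were chosen by family membership, not by any measured value, out of 21887 protein-coding genes, but with earlier results of these data known. Each gene was given every 200 bp tile that overlapped its RefSeq span on the mouse build GRCm38 or the 2 kb on either side. This took in 210 of the 53375 distinct tiles in the 8 deposited tables, and 32 of the 34 genes had at least 1 of them. Wnt16, a ligand of bone, and Fzd4, the receptor of the retinal vessel ligand Norrin, had 0.

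DNA methylation was measured by reduced representation bisulfite sequencing in organoids of the first 2.5 cm of the proximal colon of male mice about 40 days old, heterozygous for a Cre-activable BrafV600E allele, an always active form of the BRAF kinase. BrafV600E organoids had received lentiviral Cre, were cultured for 5 months and then grew for 3 weeks in Base medium, without niche factors such as Wnt3a. They were compared with organoids that had received the lentiviral backbone alone (empty vector) and grew for the same times in full medium. Empty-vector organoids cultured for 12 months (line 1) or 14 months (line 3) were set against those cultured for 2 months, each grown for 3 further weeks in full medium. Full medium held 50% Wnt3a-conditioned, 20% R-spondin-conditioned and 10% Noggin-conditioned medium, so the ligand Wnt3a was supplied to every group except the BrafV600E organoids in Base medium. Each of the 4 groups has 1 library of organoid line 1 and 1 of line 3, and the labels do not say whether a line is 1 mouse. Activation of BrafV600E and the change of medium go together in these libraries and cannot be told apart. The line 1 BrafV600E library names line 3 in another label field, and the line 3 library titled 14 months is tagged 2 months. The titles were followed, and counts are given for each line alone as well.

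The values are differences, not levels: each deposited table compares 1 library with 1 library of the same line. A tile is called gained where methylation was higher in the BrafV600E or the 12- or 14-month library, and lost where it was lower. The tables list only tiles that differed by at least 20 percentage points with a q-value of at most 0.01, so a tile that is not listed may have changed less or may not have been read. Read depth is unknown, no test across samples could be made, and agreement between the lines is the only replicate check. In bulk DNA, altered methylation within cells and an altered mixture of cells cannot be told apart. No expression values were used, so the labelled cell type could not be checked against markers.

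Wnt proteins are secreted, lipid-carrying ligands. They bind a Frizzled receptor together with Lrp5 or Lrp6, which stabilises beta-catenin and keeps colon crypt stem cells dividing, while Ror1, Ror2 and Ryk carry signals, chiefly of Wnt5a, that do not depend on beta-catenin. Many of these genes begin in a CpG island, a stretch dense in CG dinucleotides that is normally free of methylation, and methylation there usually accompanies a silent gene.

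The 300 bases around the start of 6 of these genes (250 before and 50 after it) show the sequence at their starts. Capitals mark each CG, the dinucleotide that carries methylation. They come from RefSeq on GRCm38.p6 and read 5′ to 3′ on the strand of the gene. In the Ror2 window (chr13:53286075-53286374, minus strand), tiles were listed for line 3 alone. They stood at -21.4 points with BrafV600E and at 51.2 and 39.5 points with long culture per the authors' deposited tables. All other Ror2 tiles described below as near its start lie farther into the gene, outside this window. Fzd10 (chr5:128600856-128601155, plus strand) had the longest run of gains. Wnt4 (chr4:137277385-137277684, plus strand) moved in opposite directions in the lines with BrafV600E and gained in both with long culture. Wnt3a (chr11:59290702-59291001, minus strand) and Wnt9b (chr11:103749772-103750071, minus strand) gained. Fzd4 (chr7:89404116-89404415, plus strand) is shown as a CG-rich start with 0 listed tiles.
Ror2: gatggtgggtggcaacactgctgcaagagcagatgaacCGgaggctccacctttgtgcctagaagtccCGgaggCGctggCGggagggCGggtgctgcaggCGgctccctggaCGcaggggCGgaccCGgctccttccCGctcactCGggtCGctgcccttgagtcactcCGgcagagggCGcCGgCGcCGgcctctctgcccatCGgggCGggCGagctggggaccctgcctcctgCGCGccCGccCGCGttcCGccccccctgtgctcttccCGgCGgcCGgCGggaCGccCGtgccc
Fzd10: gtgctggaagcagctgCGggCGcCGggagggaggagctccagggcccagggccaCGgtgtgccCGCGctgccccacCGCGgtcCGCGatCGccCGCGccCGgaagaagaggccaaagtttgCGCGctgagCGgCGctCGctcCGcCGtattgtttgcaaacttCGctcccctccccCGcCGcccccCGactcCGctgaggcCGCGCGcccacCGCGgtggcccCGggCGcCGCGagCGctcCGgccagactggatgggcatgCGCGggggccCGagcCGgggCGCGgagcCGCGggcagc
Wnt4: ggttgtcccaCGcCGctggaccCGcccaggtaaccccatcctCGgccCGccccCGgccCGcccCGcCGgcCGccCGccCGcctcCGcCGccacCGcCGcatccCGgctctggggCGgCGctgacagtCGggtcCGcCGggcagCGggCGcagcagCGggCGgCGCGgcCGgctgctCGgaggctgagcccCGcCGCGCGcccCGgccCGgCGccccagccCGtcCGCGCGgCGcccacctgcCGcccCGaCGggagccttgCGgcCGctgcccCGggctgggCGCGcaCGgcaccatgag
Wnt3a: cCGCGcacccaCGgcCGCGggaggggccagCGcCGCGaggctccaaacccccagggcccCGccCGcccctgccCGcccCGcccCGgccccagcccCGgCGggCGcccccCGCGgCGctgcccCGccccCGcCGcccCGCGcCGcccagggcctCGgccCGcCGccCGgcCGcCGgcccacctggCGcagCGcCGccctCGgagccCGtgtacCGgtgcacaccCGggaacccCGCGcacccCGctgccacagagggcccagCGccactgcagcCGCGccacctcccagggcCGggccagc
Wnt9b: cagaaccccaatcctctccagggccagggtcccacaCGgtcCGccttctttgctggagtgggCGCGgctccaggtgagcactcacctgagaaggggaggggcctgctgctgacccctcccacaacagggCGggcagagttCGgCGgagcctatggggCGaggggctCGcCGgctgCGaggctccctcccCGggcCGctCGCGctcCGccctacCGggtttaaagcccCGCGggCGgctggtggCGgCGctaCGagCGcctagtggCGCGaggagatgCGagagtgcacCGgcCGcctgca
Fzd4: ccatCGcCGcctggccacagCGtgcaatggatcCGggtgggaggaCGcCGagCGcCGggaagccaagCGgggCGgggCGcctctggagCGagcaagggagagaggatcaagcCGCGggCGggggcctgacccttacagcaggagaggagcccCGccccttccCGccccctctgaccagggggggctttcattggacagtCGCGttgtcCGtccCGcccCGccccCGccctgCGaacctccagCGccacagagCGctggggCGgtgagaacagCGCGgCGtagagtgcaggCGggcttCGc

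These windows hold 32 CGs in Ror2, 45 in Fzd10, 51 in Wnt4, 45 in Wnt3a, 29 in Wnt9b and 32 in Fzd4. A start window was found for 24 of the 34 genes, and for 27 starts in all; Wnt5a, Wnt7b, Wnt8a, Wnt10a, Fzd2, Fzd3, Fzd6, Fzd8, Lrp5 and Lrp6 had no entry, and for them the direction of the gene was not used. The 27 windows held a median of 31 CGs (4 to 58) against 13 in all 21263 protein-coding start windows. The letters CCGG, the site cut by MspI, the usual enzyme of this method, were searched as written; they read the same on both strands and contain a CG. They occurred in 25 of the 27 windows (92.6%) against 62.2% of all windows. A listed tile overlapped 14 of the 27 windows (51.9%) against 12.6% of all. In the Wnt2 and Fzd9 windows the overlap was with the last few bases alone and held 0 CGs. Among windows with CCGG the shares overlapped by a listed tile were 56.0% and 18.9%. The Fzd4 window has 2 such sites, and the Wnt16 window has 0.

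**Figure D1:**
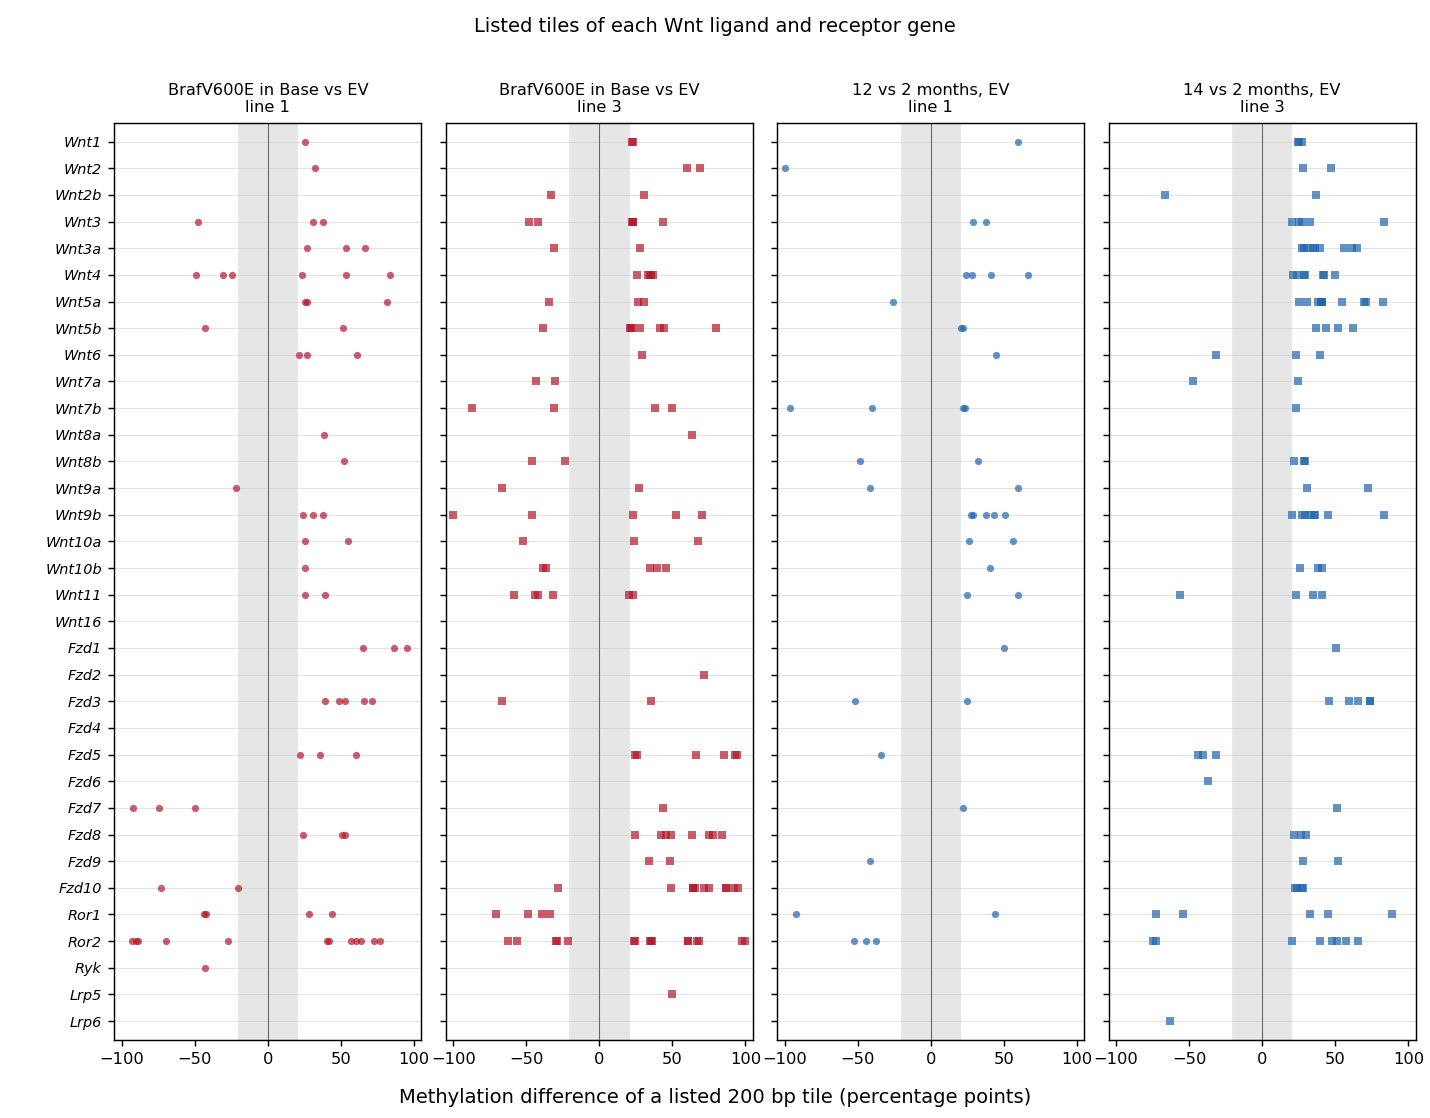
Methylation difference (x axis, percentage points) of each listed 200 bp tile for each of the 34 genes (y axis), in the 4 comparisons of 1 library with 1 library; EV is empty vector. No tile is listed inside the grey band of less than 20 points, and points for the Wnt genes lie mostly to the right. With BrafV600E these are 48 of 67 tiles in line 1 (71.6%) and 79 of 112 in line 3 (70.5%). Among listed tiles within 2 kb of any protein-coding gene 72.1% and 47.4% gained, so the line 1 share is near its background. With long culture they are 26 of 39 (66.7%) and 86 of 99 (86.9%), against 47.9% and 78.2%.

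Wnt ligand and receptor genes were listed more often than protein-coding genes in general. In the authors' deposited tables for BrafV600E organoids in Base medium, 22 of the 34 genes (64.7%) had a tile in both lines, where the background over all protein-coding genes was 18.0%. Line 1 alone listed 24 genes (70.6%) against a background of 23.8%, and line 3 alone 28 (82.4%) against 32.4%. In either line 30 were listed (88.2%) against 38.3%. For long culture, 20 genes (58.8%) had a tile in both lines per the authors' deposited tables, against a background of 12.3%. Line 1 alone listed 21 genes (61.8%) against 16.6%, and line 3 alone 27 (79.4%) against 27.0%. In either line 28 were listed (82.4%) against 31.3%. The background includes genes whose CGs were never read, and the Wnt genes were somewhat longer (median 22386 bp against 17169 bp) and richer in CGs at their starts; the part of these in the difference was not tested.

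Genes that only gained outnumbered genes that only lost in each line of both comparisons. Over all protein-coding genes this held too, except in line 1 with long culture. The share of Wnt genes that only lost was also above its background, except in line 3 with BrafV600E. These shares are of all genes, listed or not, so they rise with how often genes were listed. Among listed genes alone, the share that only lost was lower at Wnt genes in each line of both comparisons. In line 1 with BrafV600E it was 4 of 24 against 1314 of 5220. Of genes listed in both lines, 6 of 22 only gained in both with BrafV600E, near the 943 of 3937 over all genes. With long culture these were 8 of 20 against 664 of 2686. With BrafV600E, Wnt1, Wnt2, Wnt6, Wnt8a, Fzd5 and Fzd8 had gained and no lost tiles in both lines per the authors' deposited tables, 6 of 34 (17.6%) against a background of 4.31%, and 0 genes had lost tiles alone in both lines against a background of 1.69%. Line 1 alone gave 15 gained (44.1%) and 4 lost genes (11.8%), against backgrounds of 13.3% and 6.00%. Line 3 alone gave 11 gained (32.4%) and 3 lost (8.82%), against 12.1% and 11.5%. With long culture, Wnt1, Wnt3, Wnt4, Wnt5b, Wnt9b, Wnt10b, Fzd1 and Fzd7 gained in both lines per the authors' deposited tables, 8 of 34 (23.5%) against 3.03%, and Fzd5 lost in both, 1 of 34 (2.94%) against 1.16%. Line 1 alone gave 11 gained (32.4%) and 5 lost genes (14.7%), against 5.74% and 8.06%. Line 3 alone gave 18 gained (52.9%) and 3 lost (8.82%), against 14.8% and 6.71%. Many genes had tiles of both directions in a line. With BrafV600E these were 5 in line 1 (14.7%, background 4.54%) and 14 in line 3 (41.2%, background 8.83%). With long culture they were 5 in line 1 (14.7%, background 2.81%) and 6 in line 3 (17.6%, background 5.49%). Genes that gained alone in 1 line and lost alone in the other were Wnt8b and Fzd7 with BrafV600E (2 of 34, 5.88%, background 3.32%). With long culture they were Wnt2, Wnt5a and Fzd9 (3 of 34, 8.82%, background 3.02%).

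**Figure D2:**
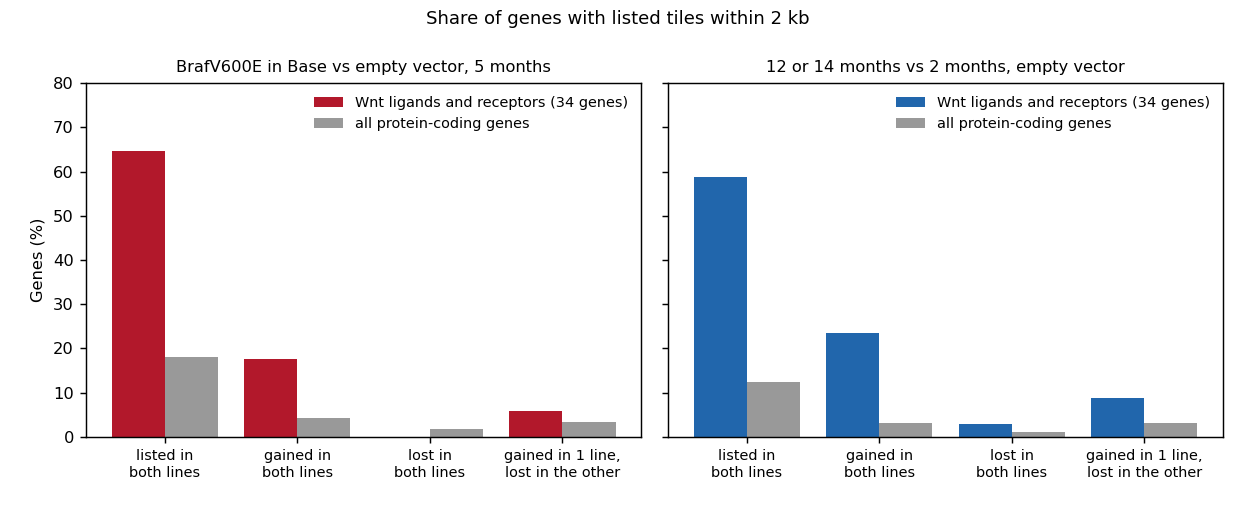
Share of genes (y axis, percent) with tiles listed within 2 kb, for the 34 Wnt ligand and receptor genes (coloured bars) and all 21887 protein-coding genes (grey bars), in each comparison. The coloured bars are higher for genes listed and for genes gained in both lines, at 64.7% and 17.6% with BrafV600E and 58.8% and 23.5% with long culture. They are also higher for genes of opposite direction in the lines, at 5.88% (2 genes) with BrafV600E and 8.82% (3 genes) with long culture. For genes lost in both lines the coloured bar is higher with long culture (2.94%, 1 gene) and lower with BrafV600E (0%). All bars count unlisted genes as well. Of genes listed in both lines, fewer Wnt genes went opposite ways, 2 of 22 against 727 of 3937 with BrafV600E. With long culture these were 3 of 20 against 662 of 2686.

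Single tiles showed the same lean. Of the tiles at Wnt genes per the authors' deposited tables, 71.6% gained in line 1 and 70.5% in line 3 with BrafV600E, while the background over listed tiles within 2 kb of any protein-coding gene was 72.1% in line 1 and 47.4% in line 3. With long culture 66.7% of the tiles gained in line 1 and 86.9% in line 3 per the authors' deposited tables, against 47.9% and 78.2%. The line 1 share with BrafV600E was therefore close to its background. The median gain at Wnt genes with BrafV600E was 46.0 points (line 1) and 43.8 points (line 3), and 34.9 and 36.8 points with long culture, per the authors' deposited tables.

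Among the ligands in BrafV600E organoids, the gains shared by the lines were mostly small and rested on few tiles. Wnt1, a ligand of midbrain development (chromosome 15, 98789857 to 98793830), had 1 tile listed in both lines, 98791801 to 98792000 inside the gene, at 25.4 points in line 1 and 23.0 points in line 3 per the authors' deposited tables. Line 3 also gained 22.4 points in the tile before it per the authors' deposited tables. Wnt2, needed for lung formation (chromosome 6, 17985474 to 18032772), gained 32.4 points in line 1 and 59.7 points in line 3 in the tile 18030201 to 18030400 per the authors' deposited tables, which lies just inside the gene from its start. Line 3 had a second tile, at 69.1 points per the authors' deposited tables, before the start.

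Wnt6, a ligand of epithelia (chromosome 1, 74754342 to 74785322), gained at its upper end, with 21.6, 26.7 and 61.1 points at 3 neighbouring tiles in line 1 and 29.3 points at the middle one in line 3 per the authors' deposited tables. The second and the third of these tiles are shared with the neighbouring gene Gm32099, so they cannot be assigned to Wnt6. Wnt8a, a ligand of the early embryo (chromosome 18, 34542327 to 34548061), had 1 tile in each line, 38.1 points in line 1 and 63.1 points in line 3 per the authors' deposited tables, at adjoining positions. No tile of Wnt8a was listed in either line with long culture.

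Wnt4, a ligand of kidney and female reproductive tract development (chromosome 4, 137277635 to 137299501), went opposite ways in the lines at its start. In line 1, BrafV600E organoids stood at -49.5, -30.6 and -24.5 points at 3 tiles between 137277401 and 137278200 per the authors' deposited tables. In line 3 they had gained 33.6, 36.9, 35.7, 35.0 and 26.1 points at 5 tiles between 137276801 and 137278000 per the authors' deposited tables. The 2 tiles listed in both lines, 137277401 and 137277601, hold 35 and 14 of the 51 CGs of the Wnt4 window printed above. Inside the gene line 1 gained at 3 tiles, by 23.4 to 83.3 points per the authors' deposited tables.

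Several other ligands changed in both directions along the gene. Wnt5b, a close relative of Wnt5a (chromosome 6, 119432531 to 119544824), gained at 5 adjoining tiles at its upstream start in line 3, by 22.4, 21.7, 44.2, 28.0 and 41.5 points, and at the first of these by 51.1 points in line 1, per the authors' deposited tables. At its start farthest downstream, line 1 stood at -42.7 points and line 3 at 79.9 points at neighbouring tiles per the authors' deposited tables. All 5 upstream tiles are shared with the neighbouring Gm52875. Wnt10a, a ligand of skin, hair and teeth (chromosome 1, 74792019 to 74804176), gained 54.5 points in line 1 and 23.7 in line 3 at the tile 74800401 to 74800600, but at 74804001 it gained 25.7 points in line 1 and stood at -52.3 points in line 3 per the authors' deposited tables.

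Wnt3a, the ligand supplied in full medium (chromosome 11, 59248036 to 59290751), gained 53.7 points in line 1 at the tile 59290801 to 59291000 per the authors' deposited tables. That tile holds 35 of the 45 CGs in the window printed above, and it was not listed in line 3. Inside the gene Wnt3a also gained 27.0 and 66.7 points in line 1. In line 3 it stood at 27.8 and -31.1 points at tiles deep inside the gene per the authors' deposited tables. Wnt5a, which signals through the Ror receptors (chromosome 14, 28504543 to 28527448), gained 81.2, 27.1 and 25.3 points in line 1 per the authors' deposited tables. In line 3 it gained 30.6 and 26.8 points at 2 tiles and stood at -34.2 points at another per the authors' deposited tables, and the tile 28510801 to 28511000 gained in both lines. Wnt11, which also signals without beta-catenin (chromosome 7, 98835084 to 98854747), gained 25.3 points in line 1 and 22.9 points in line 3 at the tile 98839001 to 98839200, while 4 other tiles of line 3 stood between -58.3 and -31.7 points per the authors' deposited tables. The 2 tiles of Wnt7a, 91400401 and 91400601, stood at -43.1 and -30.3 points in line 3 per the authors' deposited tables, and Wnt7a, Wnt7b and Wnt2b were not listed in line 1.

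Wnt3 and Wnt9b gained around the start of Wnt3 in BrafV600E organoids, by 37.8 and 30.8 points in line 1 and by 22.9 points at another tile in line 3 per the authors' deposited tables. Farther away both genes had tiles of both directions in line 3. They ranged from -48.3 to 43.6 points for Wnt3 and from -100 to 70.5 points for Wnt9b per the authors' deposited tables. The tile at 70.5 points lies at the start of Wnt9b, and line 1 gained 24.3 points at the adjoining tile. In line 1 Wnt3 also stood at -47.9 points at 1 tile far inside the gene. Wnt10b, next to Wnt1, gained 25.5 points at 1 tile in line 1 and had 3 gained and 2 lost tiles in line 3, from -38.4 to 45.6 points per the authors' deposited tables. Wnt8b, a ligand of the developing forebrain, gained 52.4 points at 1 tile in line 1 and stood at -23.4 and -45.9 points at 2 others in line 3 per the authors' deposited tables.

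**Figure D3:**
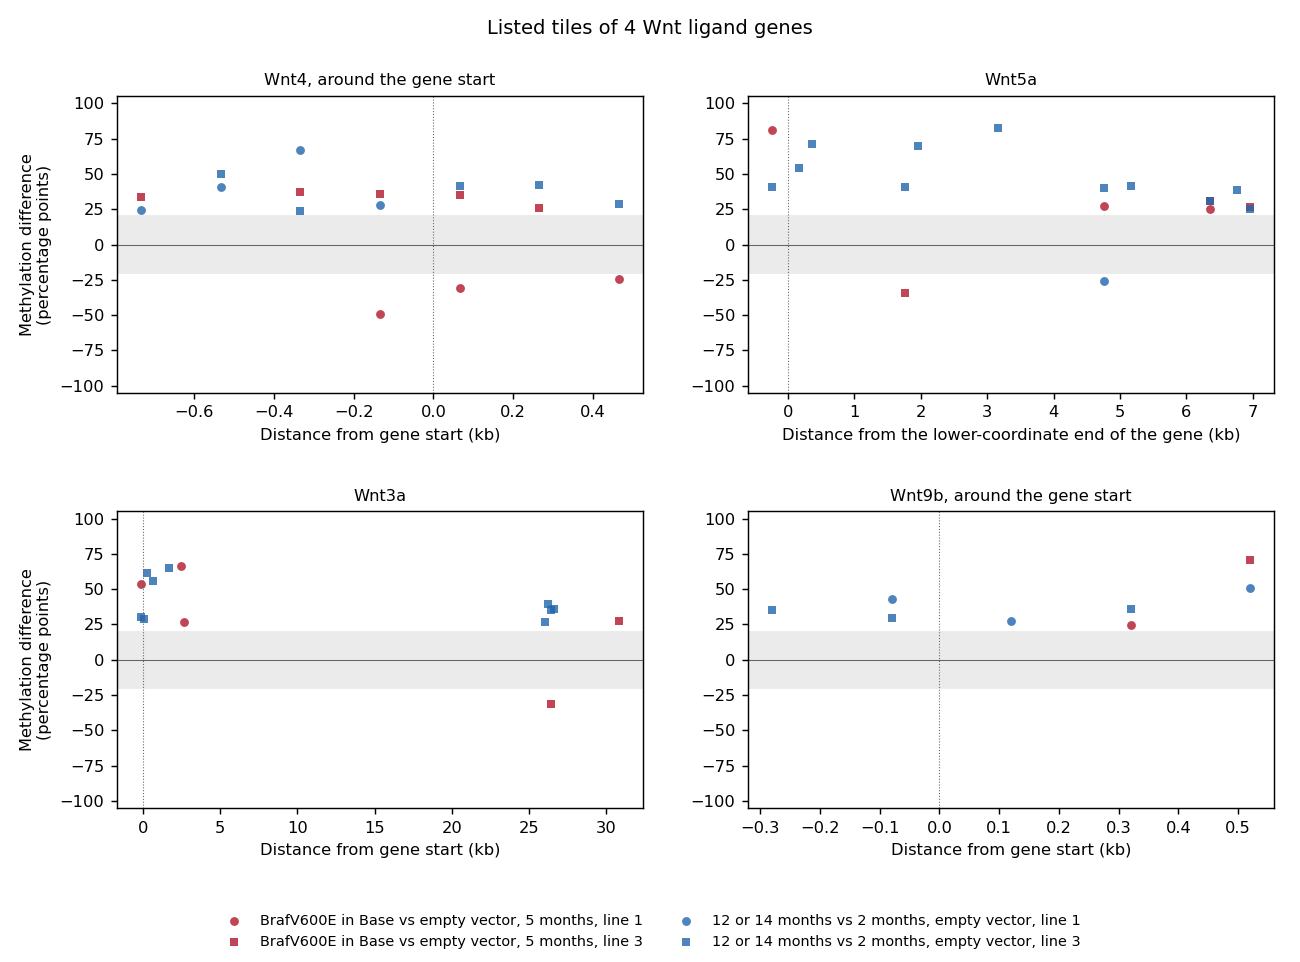
Methylation difference (y axis, percentage points) of each listed tile of Wnt4, Wnt5a, Wnt3a and Wnt9b against its distance (x axis, kb) from the gene start, or for Wnt5a from the lower-coordinate end; red is BrafV600E in Base medium against empty vector, blue 12 or 14 months against 2 months, circles are line 1 and squares line 3. At the Wnt4 start the red circles (down to -49.5 points) lie opposite to all other symbols, and Wnt5a is dominated by 11 line 3 gains with long culture.

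Among the Frizzled receptors in BrafV600E organoids, Fzd5 and Fzd8 gained in both lines, and Fzd10 gained over the longest run of tiles in line 3. Fzd5, a receptor of the intestinal epithelium (chromosome 1, 64730558 to 64737750), gained 22.0, 35.7 and 60.4 points at 3 tiles in line 1 per the authors' deposited tables. Line 3 gained 94.3, 92.6, 85.0, 26.1, 66.3 and 24.4 points at 6 tiles between 64734801 and 64736200 per the authors' deposited tables. All 3 line 1 tiles were among the 6 of line 3, and all lay inside the gene, more than 1 kb after its start. The line 3 gains were larger at 2 of the 3 shared tiles and smaller at the last, 64736001, at 24.4 points in line 3 against 60.4 in line 1 per the authors' deposited tables.

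Fzd8 (chromosome 18, 9212856 to 9216201) gained 24.2, 53.1 and 50.7 points at 3 adjoining tiles in line 1 per the authors' deposited tables. Line 3 gained at the same 3 tiles, by 42.3, 63.7 and 83.7 points, and at 5 more, by 24.4 to 77.6 points, per the authors' deposited tables. The line 3 gain was larger at each of the 3 shared tiles. Fzd10 (chromosome 5, 128601106 to 128604093) had 10 adjoining tiles in line 3, from 128600001 to 128602000, that gained 63.8, 71.5, 63.9, 86.7, 87.0, 92.3, 75.2, 95.0, 49.3 and 65.5 points per the authors' deposited tables. This run covers the whole start window printed above, where the tiles at 87.0 and 92.3 points hold its 20 and 25 CGs. In line 1 none of these 10 tiles was listed. The tile 128602401, farther into the gene, stood at -73.2 points in line 1 and -28.2 points in line 3 per the authors' deposited tables. The tile 128602001 stood at -20.5 points in line 1 per the authors' deposited tables. Every Fzd10 tile also lies in the window of the antisense gene Fzd10os.

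Fzd3, a receptor of axon guidance (chromosome 14, 65192441 to 65262463), gained at 5 adjoining tiles at its upper end in line 1, by 48.4, 71.4, 52.8, 65.9 and 38.9 points per the authors' deposited tables. In line 3 none of these 5 was listed, and 2 tiles elsewhere in the gene stood at 35.7 and -66.4 points per the authors' deposited tables. Fzd1 (chromosome 5, 4753839 to 4758216) gained 65.2, 95.0 and 86.5 points at 3 adjoining tiles in line 1 per the authors' deposited tables and was not listed in line 3. Fzd9 and Fzd2 gained in line 3 alone, at 48.7 and 34.2 points for Fzd9 and 71.3 points at 1 tile outside the span of Fzd2 per the authors' deposited tables.

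Fzd7, a receptor of intestinal stem cells (chromosome 1, 59482147 to 59486955), went opposite ways in the lines. It stood at -50.0, -74.4 and -92.0 points at 3 tiles in line 1 and at 43.8 points at 1 of them, 59483601 to 59483800, in line 3 per the authors' deposited tables. All of these tiles lie inside the gene, over 1 kb from its start. Fzd6 and Fzd4 had 0 tiles listed with BrafV600E.

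**Figure D4:**
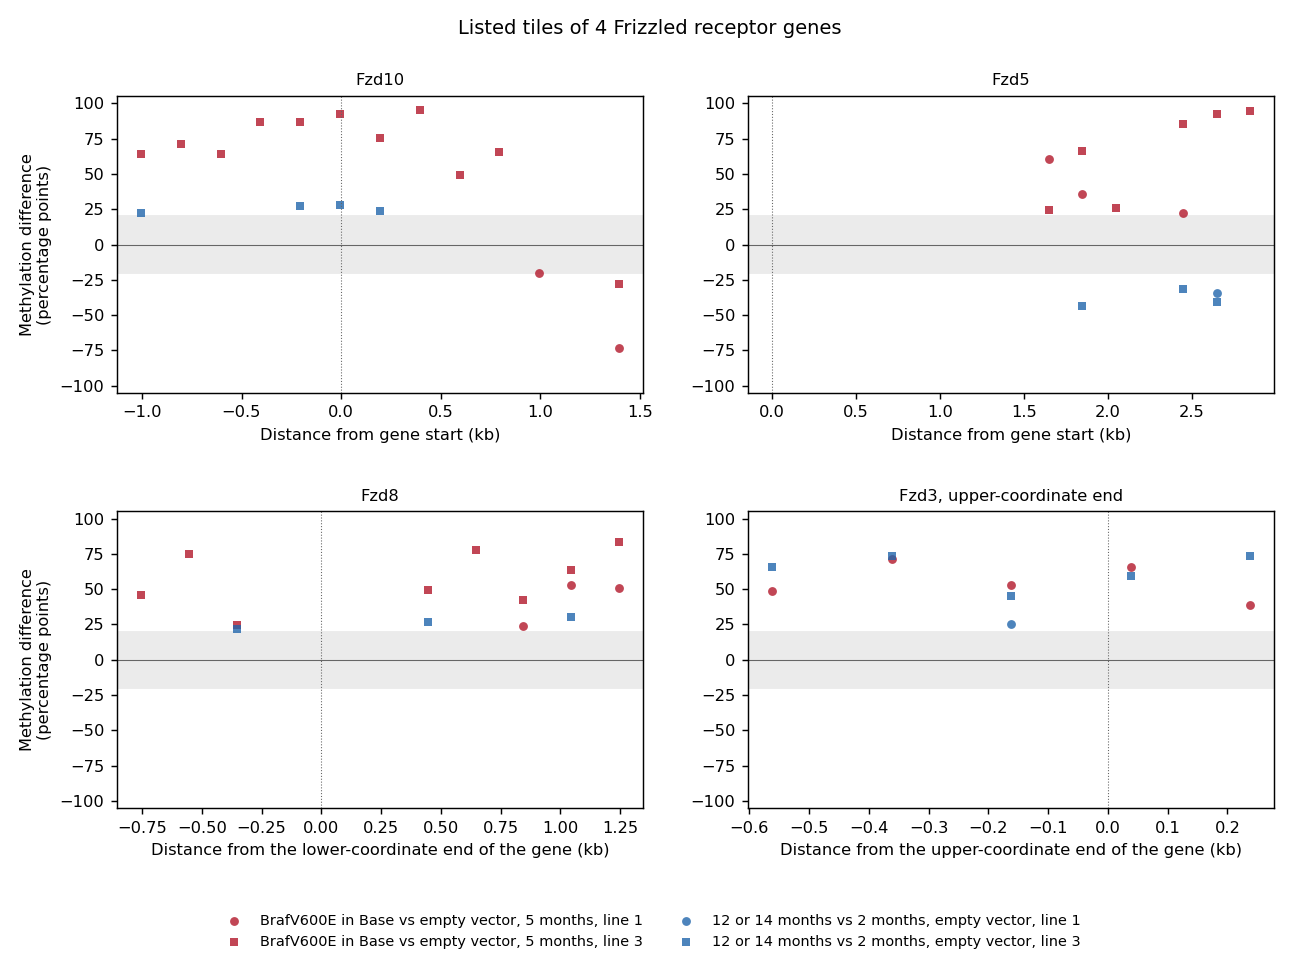
Methylation difference (y axis, percentage points) of the listed tiles of Fzd10, Fzd5, Fzd8 and Fzd3 against distance (x axis, kb) from the gene start or the named end of the gene; colours and symbols are as in the plot of ligand tiles. The red squares of Fzd10 (line 3, BrafV600E) stand at 49.3 to 95.0 points across the start, and Fzd5 has red points above 0 and blue points below 0.

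Ror2, the receptor tyrosine kinase that binds Wnt5a (chromosome 13, 53109317 to 53286124), differed between its start and the rest of the gene. BrafV600E organoids of line 1 stood at -93.1, -88.7, -69.8 and -27.3 points at 4 tiles within 1 kb of the start and at -90.0 points at the next tile inward per the authors' deposited tables. Line 3 stood at -62.4, -29.1, -56.1, -29.6 and -21.4 points at 5 tiles within 1 kb of the start per the authors' deposited tables. The tiles 53285201, 53285401 and 53285601 were listed in both lines, and each had lost in both.

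Apart from these 5 tiles in each line, all listed Ror2 tiles gained in BrafV600E organoids, 7 in line 1 and 11 in line 3. They spread over the gene between 53113001 and 53277000, and stood at 40.8 to 76.6 points in line 1 and 23.5 to 100 points in line 3 per the authors' deposited tables. The tiles 53118801, 53234801 and 53236001 gained in both lines, by 40.8, 42.1 and 76.6 points in line 1 and by 24.5, 68.4 and 60.4 points in line 3 per the authors' deposited tables. The tiles at the start are shared with the neighbouring gene Gm33574, and the loss cannot be assigned to Ror2 alone. A mean over the whole gene hides this split, at 3.7 points for line 1 and 25.6 points for line 3 per the authors' deposited tables.

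**Figure D5:**
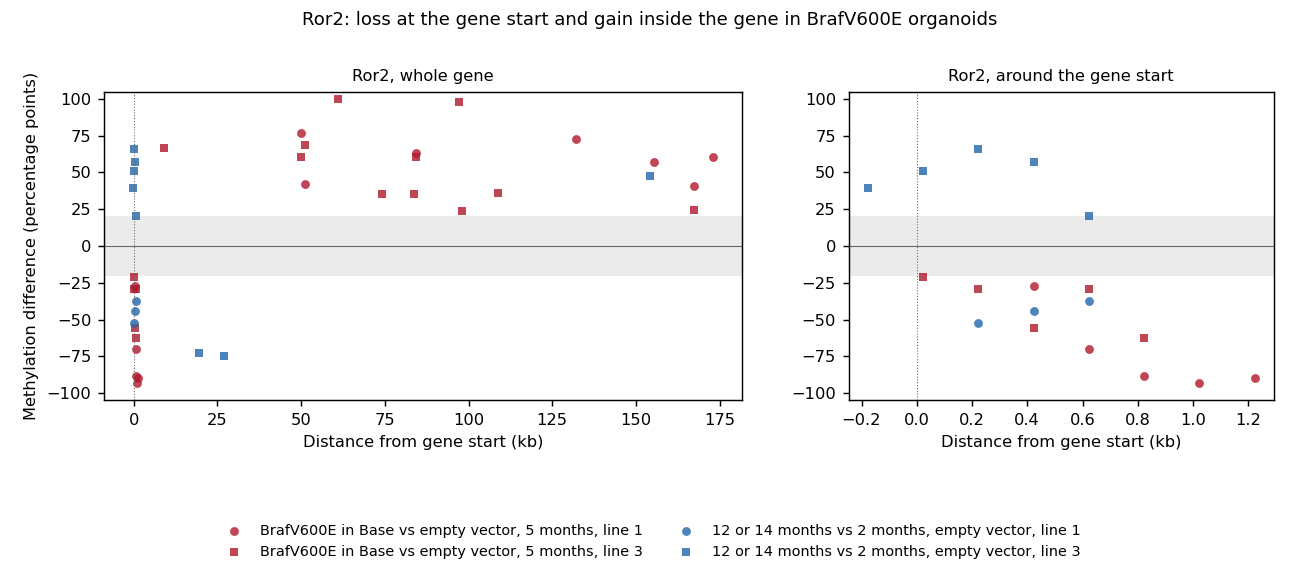
Methylation difference (y axis, percentage points) of each listed tile of Ror2 against its distance from the gene start (x axis, kb), over the whole gene (left) and near the start (right); colours and symbols are as in the plot of ligand tiles. Red points lie below 0 near the start (-93.1 to -21.4 points) and above 0 farther in, and the blue squares (line 3, long culture) lie above 0 at the start where the blue circles (line 1) lie below.

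The remaining receptors carried few tiles. Ror1 (chromosome 4, 100095791 to 100444806), the longest gene of the set at 349016 bp, stood at -43.8, 43.6, 28.0 and -42.2 points in line 1 and at -48.9, -39.4, -33.7 and -71.0 points in line 3 per the authors' deposited tables, with 0 tiles within 1 kb of its start. The tile 100136801 had lost in both lines and 100306401 had gained in line 1 and lost in line 3. Ryk, which binds Wnts without acting as a kinase (chromosome 9, 102834920 to 102908307), had 1 tile, at its start, which stood at -42.9 points in line 1 per the authors' deposited tables. Lrp5 gained 49.8 points at 1 tile in line 3 per the authors' deposited tables, and Lrp6 had 0 tiles with BrafV600E.

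In long culture without the oncogene, tiles at or near the starts of Wnt4, Wnt3 and Wnt9b gained in both lines. Wnt4 gained 24.2, 40.9, 66.7 and 28.1 points at 4 adjoining tiles at its start in line 1 and 49.9, 23.6, 41.5, 42.2 and 28.7 points at 5 tiles there in line 3 per the authors' deposited tables. The tiles 137277001 and 137277201 gained in both lines, more in line 3 at the one farther from the start and more in line 1 at the other. Line 3 gained at 2 further tiles inside the gene, by 20.9 and 29.3 points per the authors' deposited tables. In line 1 the tile 137277401 thus stood at 28.1 points after 12 months and at -49.5 points with BrafV600E per the authors' deposited tables.

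Wnt3, a ligand of the intestinal stem cell niche (chromosome 11, 103774175 to 103818021), gained 37.5 and 28.6 points before its start in line 1 and 32.5, 20.2, 27.4 and 83.3 points around its start, with 25.3 points far inside the gene, in line 3 per the authors' deposited tables. The tile 103773401 gained in both lines. All but the one far inside also lie in the window of Wnt9b, a ligand of kidney development whose RefSeq span (chromosome 11, 103727362 to 103775272) reaches over the start of Wnt3, so 9 listings counted for both genes. Away from them, Wnt9b gained at its own start, by 50.7, 27.3 and 43.0 points in line 1 and by 36.2, 29.3 and 35.3 points in line 3 per the authors' deposited tables. The tile 103749801, gained in both lines, holds 22 of the 29 CGs of the Wnt9b window printed above.

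Wnt1 gained 60.0 points at its start in line 1, and 24.5 points at the tile before it and 27.4 and 25.0 points inside the gene in line 3 per the authors' deposited tables. Wnt10b, a ligand of bone and fat (chromosome 15, 98770712 to 98778206), gained 40.6 points inside the gene in line 1, and 25.6 and 38.0 points at its start and 40.6 points inside the gene in line 3 per the authors' deposited tables. Neither gene had a tile listed in both lines with long culture. Wnt5b gained 20.4 and 22.1 points far inside the gene in line 1, at tiles shared with Fbxl14, and 61.9, 37.0, 51.6 and 43.6 points at its upstream start in line 3 per the authors' deposited tables.

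Wnt3a and Wnt5a gained broadly in line 3 alone. Wnt3a gained 64.9, 55.6, 61.2, 28.7 and 30.6 points at 5 tiles between 59289001 and 59291000 and 26.9 to 39.2 points at 4 adjoining tiles deep inside the gene per the authors' deposited tables, and it was not listed in line 1. For Wnt5a, 11 tiles gained between 25.0 and 82.7 points in line 3 per the authors' deposited tables. In line 1 Wnt5a had 1 tile, 28509201 to 28509400, which stood at -26.0 points where line 3 gained 40.0 points per the authors' deposited tables. Wnt11 gained at its upstream start in both lines, by 24.5 points in line 1 and 34.5 points in line 3 per the authors' deposited tables, at a tile shared with Gm33770. Elsewhere Wnt11 gained 60.0 points at 1 tile in line 1, and in line 3 it gained 23.0 and 41.1 points at 2 tiles and stood at -56.2 points at the tile 98838201 to 98838400 per the authors' deposited tables.

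Of the remaining ligands in long culture, most had both gained and lost tiles over the lines, Wnt10a gained alone, and Wnt8a and Wnt16 had 0 tiles. Wnt2 stood at -100 points at 1 tile far inside the gene in line 1 and gained 47.3 and 28.0 points at and before its start in line 3 per the authors' deposited tables. Wnt9a, a ligand of joints, stood at -41.7 points in line 1 and at 72.1 points in line 3 at the same tile, 59331201 to 59331400, per the authors' deposited tables. Wnt6 gained 44.3 points at 1 tile in line 1 and stood between -31.5 and 39.7 points at 3 tiles in line 3 per the authors' deposited tables. Wnt8b stood at 32.3 and -48.6 points in line 1 and gained 22.0 to 29.0 points at 3 tiles in line 3, and its tile 44511401 gained in both lines per the authors' deposited tables. In line 1 Wnt7b ranged from -96.0 to 23.7 points over 4 tiles, and in line 3 it had 1 tile at 23.2 points per the authors' deposited tables. Wnt10a had 2 tiles, in line 1 alone, and Wnt2b and Wnt7a had 1 gained and 1 lost tile each in line 3 alone.

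Among the receptors, long culture gave gains at Fzd1 and Fzd7 and losses at Fzd5 in both lines. Fzd1 gained 49.8 points in line 1 and 50.4 points in line 3 per the authors' deposited tables. Fzd7 gained 21.9 points in line 1 and 51.0 points in line 3; for each of these receptors the lines had 1 tile each, at different positions, per the authors' deposited tables. Fzd5 stood at -34.0 points at 1 tile in line 1 and at -40.4, -31.6 and -43.7 points at 3 tiles in line 3 per the authors' deposited tables. The tile 64735001 had lost in both lines, and all 3 line 3 tiles are among those that gained with BrafV600E in that line, by 92.6, 85.0 and 66.3 points per the authors' deposited tables.

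Fzd3 gained strongly in line 3, by 65.5, 73.4, 45.4, 59.6 and 73.6 points, at the same 5 tiles that gained in line 1 with BrafV600E, per the authors' deposited tables. After 12 months line 1 gained 25.1 points at 1 of the 5 and stood at -51.9 points at a tile far from them, 65207201 to 65207400, per the authors' deposited tables. Fzd10 and Fzd8 gained in line 3 alone, at 22.1 to 27.7 points over 4 tiles and 22.0 to 30.0 points over 3 tiles per the authors' deposited tables. At the tile across the Fzd10 start the line 3 difference was thus 92.3 points with BrafV600E and 27.7 points with long culture per the authors' deposited tables. Fzd9 gained 51.6 and 27.6 points in line 3 and stood at -41.5 points in line 1 at another tile per the authors' deposited tables.

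After long culture the start of Ror2 stood at -37.2, -44.3 and -52.4 points at 3 tiles in line 1 and had gained 20.1, 57.4, 65.7, 51.2 and 39.5 points at 5 tiles in line 3 per the authors' deposited tables. The 3 line 1 tiles are all among the 5 of line 3. At the Ror2 start, then, the BrafV600E comparison was negative in both lines and the long culture comparison negative in line 1 and positive in line 3. Farther in, line 3 stood at -75.0, -72.7 and 47.8 points and line 1 had 0 tiles per the authors' deposited tables. Ror1 stood at 44.2 and -92.3 points in line 1 and at -72.7 to 88.9 points over 5 tiles in line 3 per the authors' deposited tables. Ryk and Lrp5 had 0 tiles, and Lrp6 and Fzd6 had 1 lost tile each in line 3, -63.4 points for Lrp6 and -37.4 for Fzd6 per the authors' deposited tables.

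Near gene starts the Wnt genes gained more often than elsewhere in 3 of the 4 comparisons. Within 1 kb of a start (or of either end, for genes with no entry), 52 of 55 tiles gained in line 3 with long culture and 16 of 20 in line 1, against 34 of 44 and 10 of 19 elsewhere. With BrafV600E 40 of 49 tiles near a start gained in line 3, against 39 of 63 elsewhere, but in line 1 the order was reversed, at 19 of 30 near a start against 29 of 37 elsewhere. The 11 lost tiles near starts in line 1 include the 4 at Ror2 and the 3 at Wnt4. Over all protein-coding genes the share gained near a start was higher than elsewhere in each of the 4 comparisons, at 78.7% against 67.0% in line 1 and 64.0% against 39.6% in line 3 with BrafV600E, and at 61.5% against 35.3% in line 1 and 90.3% against 67.0% in line 3 with long culture. The share near starts at Wnt genes in line 3 with long culture, 94.5%, was close to that over all genes.

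The comparisons of BrafV600E and of long culture share no library but use the same lines, so their values are set side by side. In line 3, 40 tiles of Wnt genes were listed in both, which is 35.7% of the BrafV600E tiles and 40.4% of the long culture tiles; over all tiles these shares were 23.3% and 32.4%. Of the 40 tiles, 26 gained in both, 10 had lost with BrafV600E and gained with long culture, 3 had gained with BrafV600E and lost with long culture, and 1 had lost in both. The direction was thus the same at 67.5%, against 51.9% of all tiles listed in both comparisons of line 3. The 10 tiles include 4 at the Ror2 start and 1 each at Wnt2b, Wnt3a, Wnt5a, Wnt7a, Wnt8b and Wnt10b, and the 3 tiles are those of Fzd5. In line 1, 12 tiles were listed in both (17.9% of the BrafV600E and 30.8% of the long culture tiles, against 15.6% and 28.9% over all tiles), with 6 gained in both and 3 lost in both. This is the same direction at 75.0%, against 48.9% of all tiles listed in both comparisons of line 1. Between the lines, 27 tiles were shared with BrafV600E, of which 16 gained and 5 had lost in both (77.8% the same direction, against 73.9% of all tiles shared by the lines). With long culture 13 were shared, of which 7 gained and 1 had lost in both (61.5%, against 68.5%).

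Other genes of the pathway were counted by the same rule. Of 69 genes for ligand secretion, the R-spondin arm, other co-receptors, cytoplasmic and nuclear transducers, secreted antagonists and target genes, 8 gained and 2 had lost in both lines with BrafV600E, and 3 gained and 3 had lost in both with long culture. With BrafV600E these are 11.6% gained and 2.90% lost, against backgrounds of 4.31% and 1.69% over all protein-coding genes. With long culture they are 4.35% gained and 4.35% lost, against 3.03% and 1.16%, so the share gained was near its background. Lgr6, a relative of Lgr5, was among the 3 gained with long culture. Porcn and Wls, which lipidate and export Wnts, had 0 tiles in either comparison. In the R-spondin arm, the stem cell receptor gene Lgr5 gained with BrafV600E, at means of 50.7 points in line 1 and 81.2 points in line 3 per the authors' deposited tables. Znrf3, whose product removes Frizzled receptors from the cell surface, stood at -52.1 points in line 1 and -23.6 points in line 3, at 1 tile each per the authors' deposited tables. Rnf43, which acts like Znrf3, gained at 3 tiles in line 3 with BrafV600E at a mean of 90.3 points, and with long culture stood at -47.5 points in line 1 and -25.1 points in line 3 at 1 tile each per the authors' deposited tables.

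Among the cytoplasmic transducers, Gsk3b, the kinase that marks beta-catenin for breakdown, gained at means of 44.7 points in line 1 and 73.1 points in line 3 with BrafV600E, and the casein kinase gene Csnk1e had lost, at means of -52.9 and -40.8 points, per the authors' deposited tables. With long culture Axin1, a scaffold of the same breakdown complex, stood at -30.8 points in line 1 and -34.4 points in line 3, a tile each, per the authors' deposited tables. Of the 8 nuclear effectors, 0 gained or lost alone in both lines with BrafV600E, while with long culture Pygo1 gained, at means of 29.4 and 38.7 points, and Tcf7l2 had lost, at means of -26.7 and -44.0 points, per the authors' deposited tables. The secreted antagonists and their receptors had 3 of 16 gained in both lines with BrafV600E (Dkk1, Dkk3 and Sostdc1) and 1 with long culture (Frzb), and 0 lost. The background for gains in both lines was 4.31% with BrafV600E and 3.03% with long culture, and in lists this short 1 gene is no result about the list. Of the 12 other co-receptor and planar polarity genes, Celsr2 and Prickle1 gained in both lines with BrafV600E and 0 with long culture. Of the 8 target genes, 0 gained or lost alone in both lines in either comparison. In at least 1 line, 5 of them were listed with BrafV600E and 3 with long culture.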

How the data were processed

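Reduced representation bisulfite libraries were sequenced single-end, per the labels' protocols. Per the submitters' processing notes, the build was GRCm38 (mm10) and the tools were methylKit 1.7.4, Bismark 0.14.3, FastQC 0.11.7 and Trim Galore 0.4.4. Which settings and coverage minimum were used is not given in the sources used here. All 8 tables the authors deposited compare 1 library with 1 library. Per the file headers, each row holds the position of a tile, its methylation difference (in percentage points, by the values) and a q-value beside the p-value. No read counts were used, so the depth per sample and the precision of a tile are unknown.

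Tiles were joined to the RefSeq gene table of GRCm38.p6 with 2 kb on either side, with Python 3.11.15 and pandas 2.3.3; the join was tested on simulated data. A gene gained in a line if it had a gained and no lost tile, and lost in the reverse case. The same rule over 21887 protein-coding genes gave the background. Starts and sequences came from RefSeq's start windows, which gave the strand of 24 genes. Single tiles were named for genes with the same direction in both lines of a comparison or in both comparisons of a line, and for Ror1, Ror2 and Ryk; values of other genes (Wnt7a, Fzd2, Fzd6, Lrp5, Lrp6 and those of opposite direction among them) were added after their values were seen. The members and lists were chosen with earlier results of these data known. Lists of 8 colon epithelium and 6 mesenchyme genes were counted as well. Alternatives were no flank, 5 kb flanks, 1 kb around the start (or either end, for genes with no entry), at least 40 points, q under 0.001, tiles of 1 gene only, and each line left out. No test was run, since the tables hold no values per sample.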

Additional observations from a re-analysis of the deposited data

How the results depend on the processing

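No paired analysis was possible because the result comes from no test: the tables hold within-line differences and no values per library. The count of genes gained in both lines with BrafV600E, 6, was 5 or 6 under 5 alternatives and 2 (Fzd5 and Fzd8) at 40 points or more. Near starts alone the genes were Wnt2, Wnt3, Wnt8a, Wnt9b and Fzd8, 3 of them among the 6. Wnt8a and Fzd8 have no start entry, so either end of the gene was taken, and their tiles may not lie near a start. With tiles of 1 gene only Wnt6 dropped out and Ror2, whose start tiles are then left out, came in. A single line called 11 to 15 genes gained and 3 to 4 lost with BrafV600E, against 6 and 0 in both lines. Genes lost in both lines numbered 1 (Ror2) within 1 kb of the start and 0 under the other 5 alternatives that kept both lines. The count gained with long culture, 8, was 6 to 8 under 5 alternatives, with 5 to 7 of the 8 genes among them and Wnt10a, Fzd3 or Wnt9a new in 4 of the 5, and was 4 (Wnt4, Wnt9b, Wnt10b and Fzd1) at 40 points or more, and 11 to 18 in a single line. The 1 gene lost with long culture, Fzd5, was lost under 4 alternatives, and the count was 0 near starts, 0 at 40 points and 3 to 5 in a single line. Fewer tiles enter near starts and at 40 points, and 1 line instead of 2 in the rest. Values of single genes left with no tile under an alternative, as for Wnt1 with BrafV600E at 40 points or more, were not counted. A value also stays the same where an alternative keeps the same tiles. Of the 198 values that were counted, 164 stayed within the spread between the lines, 26 moved by more and 8 changed sign. With BrafV600E these were Wnt1 in line 3 (-8.9 points with 5 kb flanks), Ror1 in line 1 (9.2 at q under 0.001 and 9.8 with tiles of 1 gene only), and Ror2 (-69.7 in line 1 and -39.7 in line 3 near the start, -12.8 in line 1 at q under 0.001). With long culture they were Ror1 in line 3 (-63.3 at q under 0.001) and Ror2 in line 3 (-33.3 with tiles of 1 gene only). The Wnt1 change comes from 1 tile 4171 bp beyond the gene, at -72.2 points in the authors' deposited tables; for Ror2 the start tiles decide the sign.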

Other observations

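The ligand genes Wnt6 and Wnt10a, Wnt3a and Wnt9a, and Wnt1 and Wnt10b lie next to each other in the genome, with gaps of 6696, 16097 and 11650 bp, and 0 tiles counted for both genes of these pairs. In the BrafV600E organoids of line 1, Wnt6, Wnt10a, Wnt1, Wnt10b and Wnt3a had gained tiles alone, while Wnt9a had 1 lost tile, at -21.8 points in the authors' deposited tables. At that Wnt9a tile, 59307001 to 59307200 just after the start, line 3 gained 27.1 points in the authors' deposited tables. In line 3 with BrafV600E, Wnt6 and Wnt1 gained alone, while Wnt10a, Wnt10b, Wnt3a and Wnt9a had tiles of both directions. Over all protein-coding genes 13.3% gained alone in line 1 and 12.1% in line 3.

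The window of 2 kb set which tiles counted. The farthest tile inside it lay 1676 bp from Lrp6, at -63.4 points in line 3 with long culture, and the nearest outside lay 2092 bp from Wnt2b, at 39.0 points in the same comparison of the authors' deposited tables. Between 2 and 5 kb 18 further listings were found, among them tiles 2306 bp from Fzd10 at 27.5 points in line 1 and -56.8 points in line 3 with BrafV600E in the authors' deposited tables.

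Of 8 colon epithelium genes, Epcam and Lgr5 gained and Muc2 had lost in both lines with BrafV600E, and 0 did either with long culture. Of 6 mesenchyme genes, 0 gained in both lines with BrafV600E, and Des, Pdgfra and Vim did with long culture. Col1a1 went opposite ways with long culture, at -76.9 points in line 1 and 47.2 points in line 3. Col1a2 had tiles from -100 to 74.1 points in line 3 with long culture per the authors' deposited tables. Over all protein-coding genes 4.31% gained and 1.69% lost in both lines with BrafV600E, and 3.03% and 1.16% with long culture. In lists this short, these counts are no result about the list. These are methylation differences and give no cell mixture; their part in the results on Wnt genes was not tested.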
